A study of Mus musculus with 33 samples.

Results

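Gata4 was enriched at 2578 of 30815 regions of the mouse genome both when it was expressed together with Mef2c and Tbx5 and when it was expressed alone, and at these regions neither Mef2c nor Tbx5 was enriched in the cells with all 3 factors. These 2578 regions, called kept Gata4-only regions here, made up 8.37% of the regions and 9.07% of the bases they cover. They were chosen by measured values. Counts were summed per group and divided by the summed total to give CPM, counts scaled to the same total in every group, and log2 enrichment was log2 of CPM plus 5 over the CPM plus 5 of all 9 input libraries summed. A region was kept when Gata4 had a log2 enrichment of at least 0.585 with the others and also alone, and Mef2c and Tbx5 with the others both stayed under that value. Over all regions Gata4 reached it at 19.9% with the others and at 21.3% alone. The Gata4 enrichment of these regions, and their lack of Mef2c and Tbx5 enrichment with the others, are therefore descriptions of the choice and carry no test.

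Gata4 is a zinc finger transcription factor of early heart development that binds DNA words built around GATA and can bind sites in closed chromatin. Mef2c is a MADS box factor and Tbx5 is a T-box factor, and both act with Gata4 in heart muscle gene programmes. Forced expression of the 3 factors is used to turn cardiac fibroblasts towards a heart muscle cell state, a procedure called direct cardiac reprogramming.

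Chromatin immunoprecipitation with sequencing (ChIP-seq) was done in an immortalised neonatal cardiac fibroblast line of the Cd-1 strain that carried alpha-MHC-GFP and large T antigen. Retroviruses brought in Gata4, Mef2c and Tbx5 together, or Gata4, Mef2c or Tbx5 alone; all cultures received sb431542 and xav939, inhibitors of Tgfβ and Wnt signalling, and unsorted cells were taken at day 2. The groups were Gata4 with the others (6 libraries), Mef2c with the others (4), Tbx5 with the others (4), Gata4 alone (4), Mef2c alone (3), Tbx5 alone (3), and as inputs 6 libraries of cells with all 3 factors and 1 for each factor alone. The Gata4 and Tbx5 antibodies were goat polyclonals of 1 supplier, and the Mef2c antibody was a rabbit monoclonal of another. The cells come from 1 line, and without sorting, cells that took up no virus, or fewer than all 3, are part of each culture. Cells without a retrovirus were not among the groups, so a factor's own level in the line is not part of any comparison.

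ChIP libraries held 222761 to 2377616 counts in the regions and inputs 97474 to 301678. Libraries 1 and 6 of Gata4 with the others agreed within sampling noise and were counted as 1 sample, as were inputs 1 and 3 and inputs 2, 4 and 5 of the cells with all 3 factors, which leaves 5 samples of Gata4 with the others and 6 input samples. A library with 0 counts at a region allows up to 3 counts there, which is 1.26 to 30.8 CPM depending on the library's total, and covers counting error only. Because CPM is a share of the counts in these regions, enrichment is relative to the other regions of the same library: the median log2 enrichment over all 30815 regions was below 0 in every ChIP group, between -1.40 for Mef2c alone and -0.38 for Gata4 with the others. Library 4 of Gata4 alone stood apart. It was the shallowest ChIP library and is outside the rule, and its values are given apart wherever they touch a result.

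At the kept regions the median log2 enrichment of Gata4 was 0.88 with the others (5th to 95th percentile 0.61 to 1.56, highest 2.77) and 1.34 alone (0.70 to 2.15, highest 3.14). Mef2c with the others had a median of -1.10 and Tbx5 with the others one of -0.45. Both values are set low by the rule. Mef2c with the others was nonetheless above 0 at 199 of the kept regions and Tbx5 with the others at 706, while both were below 0 at 1769 of them (68.6%). Few kept regions were far from the limits: 819 (31.8%) had a log2 enrichment above 1 in both Gata4 groups, 15 were above 2 in both, and at 586 (22.7%) the lower of the Gata4 values was within 0.1 of the threshold. At 120 regions Mef2c or Tbx5 with the others was within 0.1 below it.

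**Figure D1:**
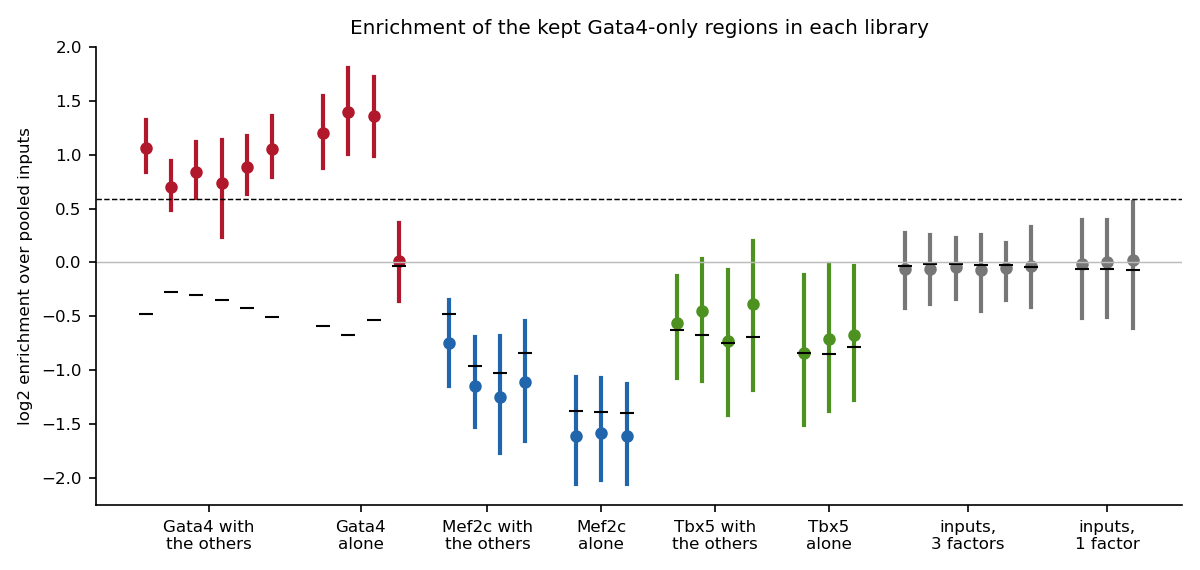
Median log2 enrichment over the pooled inputs at the 2578 kept Gata4-only regions, with the interquartile range over regions as a bar, for each library, beside the median over all 30815 regions as a black dash and the threshold as a dashed line. The libraries of Gata4 with the others sit between 0.70 and 1.07 and libraries 1 to 3 of Gata4 alone between 1.20 and 1.40, while library 4 of Gata4 alone is at 0.01, next to the inputs.

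The region with the highest Gata4 enrichment was chr11:104829799-104830074 (276 bp, coordinates on mm9 throughout). Gata4 gave 263, 176, 207, 153 and 175 CPM there with the others, and 192, 338 and 266 CPM in libraries 1 to 3 alone, against 18.1 to 39.9 CPM in the 6 input samples. Library 4 of Gata4 alone gave 8.98 CPM, below every input. Mef2c gave 15.7, 5.04, 2.33 and 0.841 CPM with the others and 1.09, 1.03 and 0 CPM alone, and Tbx5 gave 10.3, 5.30, 2.09 and 2.79 CPM with the others and 6.18, 8.96 and 2.35 CPM alone. Apart from library 4, the Gata4 samples lay above all inputs and the Mef2c and Tbx5 samples lay below all inputs, with no overlap. Another kept region lay 172 bp away.

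The next region by enrichment, chr1:23539944-23540760, was wide (817 bp), and its samples disagreed. Gata4 gave 564, 272, 427, 73.9 and 351 CPM with the others and 78.6, 648 and 730 CPM in libraries 1 to 3 alone. The inputs of cells with all 3 factors gave 51.6, 62.8 and 133 CPM, and those of cells with Gata4, Mef2c or Tbx5 alone gave 109, 120 and 10.3 CPM. Thus 1 sample of Gata4 with the others and library 1 alone lay inside the range of the inputs, so the high group value there comes from the other samples. Library 4 of Gata4 alone gave 67.3 CPM, also inside that range.

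The third, chr17:56416173-56416379 (207 bp), had a low input. Gata4 gave 123, 61.1, 67.2, 93.7 and 76.5 CPM with the others and 74.5, 124 and 123 CPM in libraries 1 to 3 alone, against 0 to 32.0 CPM in the inputs. Mef2c gave 10.4, 7.55, 19.8 and 10.5 CPM with the others and 35.9, 27.9 and 24.4 CPM alone. Tbx5 gave 12.1, 15.9, 17.8 and 19.6 CPM with the others and 30.9, 14.9 and 30.6 CPM alone. Of the factors alone, 1 sample of Mef2c lay above every input and 0 samples of Tbx5 did. Library 4 of Gata4 alone gave 4.49 CPM, inside the range of the inputs.

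The other 7 of the 10 highest were chr15:101154604-101155041, chr2:32444159-32444382, chr19:38078754-38078959, chr17:24357786-24357992, chr18:78328006-78328502, chr9:75096494-75097149 and chr3:127466246-127466521. Their log2 enrichment was 2.10 to 2.28 with the others and 2.35 to 2.95 alone. At 6 of them Tbx5 alone had a log2 enrichment below 0. The exception was the chromosome 19 region, where Tbx5 alone reached 0.61 and Tbx5 with the others, at 0.56, missed the threshold.

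**Figure D2:**
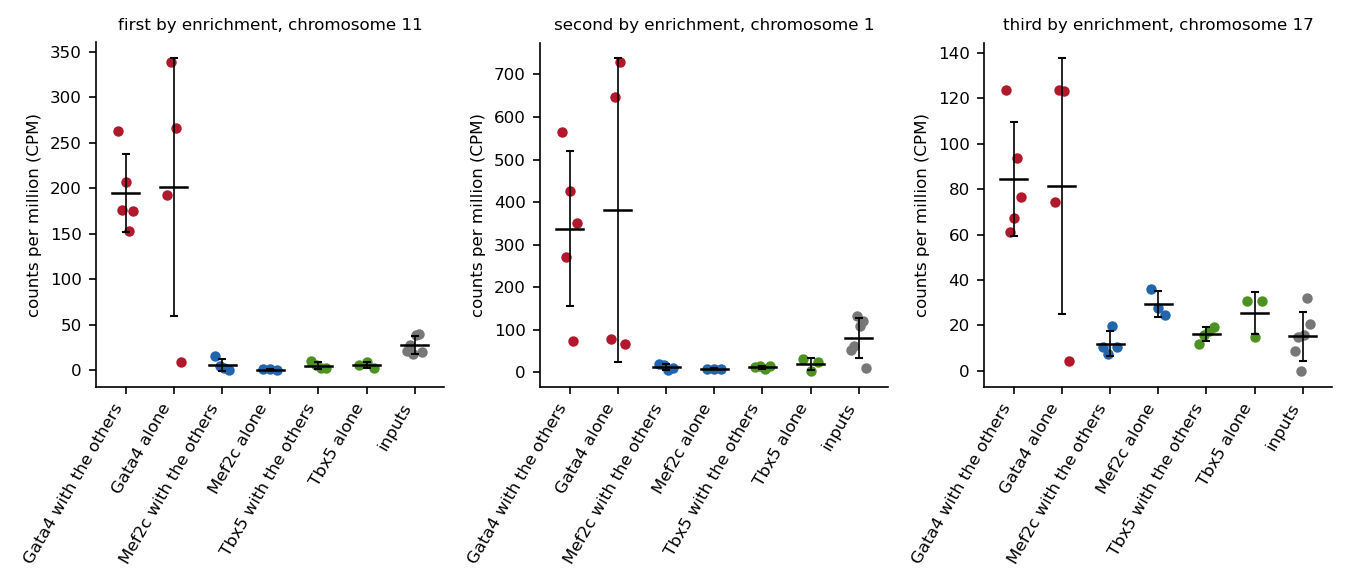
CPM per sample, on a linear axis, at the 3 kept regions with the highest Gata4 enrichment, with the group mean and standard deviation, library 4 of Gata4 alone included. On chromosome 11 Gata4 with the others (153 to 263 CPM) and libraries 1 to 3 of Gata4 alone (192 to 338 CPM) stand clear of the inputs, whereas on chromosome 1 the samples of both Gata4 groups spread from 67.3 to 730 CPM.

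At the other end, the kept regions closest to the threshold were chr11:90078329-90078657 and chr15:38502498-38502754, both with 0.585 for Gata4 with the others, and chr7:114910392-114910618 with 0.586. The first not to be kept were chr1:61017397-61017691 and chr6:115236959-115237416, which missed it with the others, and chr10:17665930-17666136, which had 0.735 with the others and 0.584 alone. At chr11:90078329-90078657 Gata4 gave 66.5, 45.5, 56.6, 39.8 and 47.8 CPM with the others against 23.6 to 48.3 CPM in the inputs, so the sample values overlapped. At chr1:61017397-61017691 it gave 73.0, 29.9, 44.2, 45.5 and 30.8 CPM against 20.5 to 63.9 CPM. Regions on either side of the limit thus looked alike in single samples.

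Of all counts of a sample, 15.7 ± 1.91% lay in the kept regions for Gata4 with the others (SD, n = 5 samples) and 22.8 ± 1.92% for Gata4 alone (libraries 1 to 3, n = 3), against 7.81 ± 0.283% in the inputs (n = 6). Library 4 of Gata4 alone held 7.94%, inside the range of the inputs (7.44 to 8.09%). Mef2c held 3.57 ± 0.512% with the others (n = 4) and 2.16 ± 0.064% alone (n = 3), and Tbx5 held 5.26 ± 0.579% with the others (n = 4) and 4.96 ± 0.297% alone (n = 3). All Mef2c and Tbx5 samples therefore had a smaller share of their counts in the kept regions than any input. Such shares depend on what else in a library is enriched.

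The agreement of single samples was examined in 2 ways. Of the 8 Gata4 samples in the rule (5 with the others, 3 alone), a kept region passed the threshold in a median of 7 and at least 2. In all 8 samples 640 kept regions (24.8%) passed it, and 2079 (80.6%) were above 0. When the rule was applied again without 1 sample of Gata4 with the others, 52.9 to 90.7% of the regions it then kept passed the threshold in the sample left out, against 15.6 to 22.5% of all regions. Sample 4, the shallowest of these, gave the lowest of these values (52.9%, against 18% of all regions), and the summed libraries 1 and 6, the deepest, the highest (90.7%, against 22.5%). Between them the order did not follow depth. Sample 2 (835285 counts) gave 57.0%, sample 3 (565058 counts) 72.7% and sample 5 (941173 counts) 72.3%. Over all regions these were 15.6, 17.1 and 20.9%. When a library of Gata4 alone was left out, the share was 88.5, 92.6 and 88.9% for libraries 1, 2 and 3, against 22, 21.3 and 20.4% of all regions. The sample left out still shares its inputs with the choice. In library 4 of Gata4 alone, which never enters the rule, 12.4% of the kept regions passed against 9.92% of all regions, and the median log2 enrichment was 0.01 at the kept regions against -0.03 overall.

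The 2 Gata4 enrichments of a kept region differed in size. The log2 enrichment with the others minus that alone had a median of -0.41 (interquartile range -0.67 to -0.16). The value with the others was the lower at 2262 kept regions (87.7%) and the higher at 316. Both values enter the rule, and that alone leaves out library 4, so these counts describe the choice. Over all regions the values also spread wider alone (5th to 95th percentile -1.835 to 1.496) than with the others (-1.44 to 1.137). Where Tbx5 joined Gata4 the medians were 1.064 alone and 1.103 with the others. The same counts were not made for other sets. Across the 2578 kept regions the Spearman correlation between both Gata4 enrichments was 0.49, which is a description of regions that share their inputs and their threshold. Region width was related to the enrichment alone with a Spearman rho of 0.21 and to that with the others with one of 0.06.

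**Figure D3:**
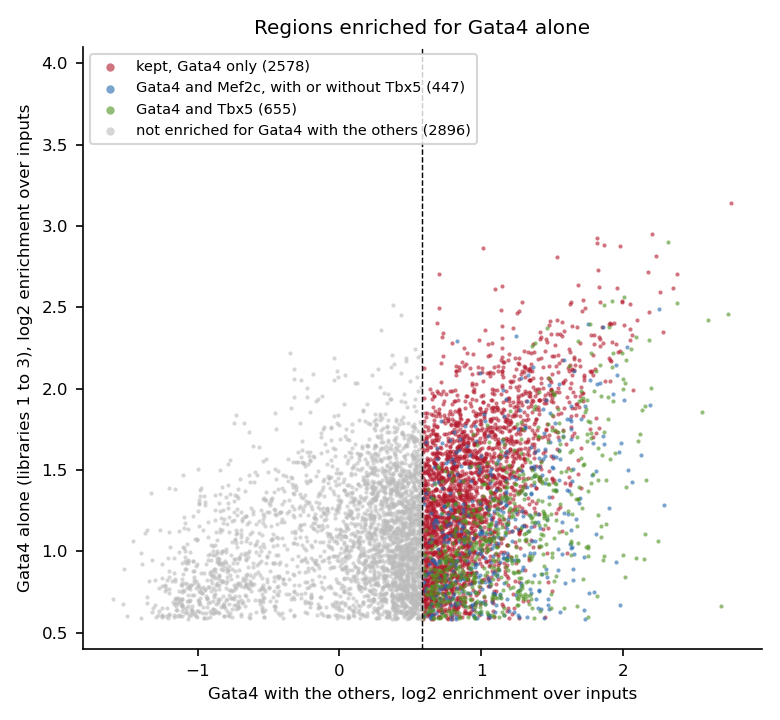
Log2 enrichment of Gata4 with the others against that of Gata4 alone, each point a region, for the 6576 regions enriched for Gata4 alone, coloured by what was enriched with the others, with the threshold of 0.585 as a dashed line. Most kept regions (2262 of 2578) have the lower value with the others. Both values enter the rule, so this count describes the choice.

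Of the 6576 regions where Gata4 alone was enriched, 2578 (39.2%) were kept as Gata4-only, 655 (9.96%) also had Tbx5 with the others, 268 (4.08%) also had Mef2c and 179 (2.72%) had all 3 factors. At 2576 (39.2%) none of the 3 was enriched in cells with all factors, and Gata4 was not enriched while Mef2c was at 212, Tbx5 at 98 and both at 10. The kept share differed with the strength of Gata4 alone. With the 6576 regions ranked by it into 4 groups of about equal size, the kept share was 23.5% in the lowest group (log2 enrichment of Gata4 alone 0.586 to 0.865), 30.7% in the next, 40.7% in the third and 61.9% in the highest (above 1.47). The share where Gata4 was not enriched with the others was 56.5, 51.8, 44.0 and 23.8% in the same order, and the share joined by Tbx5 was 12.1, 10.9, 9.44 and 7.42%. These shares are part of the choice and describe it. Regions that were Gata4-only with the others without being enriched for Gata4 alone numbered 682.

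Mef2c alone and Tbx5 alone do not enter the rule, so their libraries show what these factors did at the kept regions in other cultures. Mef2c alone had a median log2 enrichment of -1.59 at the kept regions against -1.40 over all regions, and Tbx5 alone -0.73 against -0.86. Mef2c alone reached the threshold at 28 kept regions (1.09%), against 19.1% of all regions and 7.4% of the 17623 regions that had neither Mef2c nor Tbx5 with the others. Tbx5 alone reached it at 157 (6.09%), against 20.5% of all regions and 4.43% of those 17623. These counts depend on the inputs and the scaling. A factor's own input is 1 library, of 125181 counts for Mef2c alone and 97474 for Tbx5 alone. In these 3 counts are 24.0 and 30.8 CPM, near the median input of the kept regions (26.8 CPM). With the factor's own input Mef2c alone reached the threshold at 129 kept regions and at 23.9% of all regions, and Tbx5 alone at 419 and 30.3%. With TMM factors, which scale on the bulk of the regions, it was 363 and 36.2% for Mef2c alone and 698 and 32.1% for Tbx5 alone. Both factors alone were below 0 at 1939 kept regions (75.2%). Since the rule asked for no Mef2c and no Tbx5 enrichment in the cells with all factors, the 17623 regions that meet the same condition are the closer background. Shares over that background were not computed with the own inputs or the TMM factors.

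The most similar sets gave other values. Tbx5 alone reached the threshold at 461 of the 655 regions (70.4%) where Tbx5 joined Gata4, at 7.42% of the 2896 regions enriched for Gata4 alone and not with the others, and at 6.45% of the 682 gained Gata4-only regions. Mef2c alone did so at 0.61%, 7.84% and 0.88% of these sets. These differences between sets were not tested, since regions are not replicates, and for the set joined by Tbx5 the rule itself uses Tbx5.

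At the 28 kept regions that Mef2c alone reached, its median log2 enrichment was 0.77 alone and 0.34 with the others. At the 157 that Tbx5 alone reached, Tbx5 had 0.80 alone and 0.35 with the others. In both cases the order of the 2 values was fixed by the choice, since these regions were taken for reaching the threshold alone and the rule holds the factor under it with the others. Only 3 kept regions reached the threshold for both factors alone, and these were named after their values were seen: chr17:56416173-56416379, described above, chr5:93192709-93192988 and chr6:121110332-121110538. At the chromosome 6 region Mef2c gave 59.9, 51.6 and 52.1 CPM alone, Tbx5 gave 41.2, 35.8 and 30.6 CPM alone, and the inputs gave 0 to 39.1 CPM. Mef2c alone lay above every input there, whereas Tbx5 alone overlapped with the inputs. With the others, Mef2c gave 18.3, 42.8, 33.7 and 28.2 CPM and Tbx5 gave 25.9, 22.2, 27.2 and 33.5 CPM, all inside the range of the inputs except 1 sample of Mef2c.

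**Figure D4:**
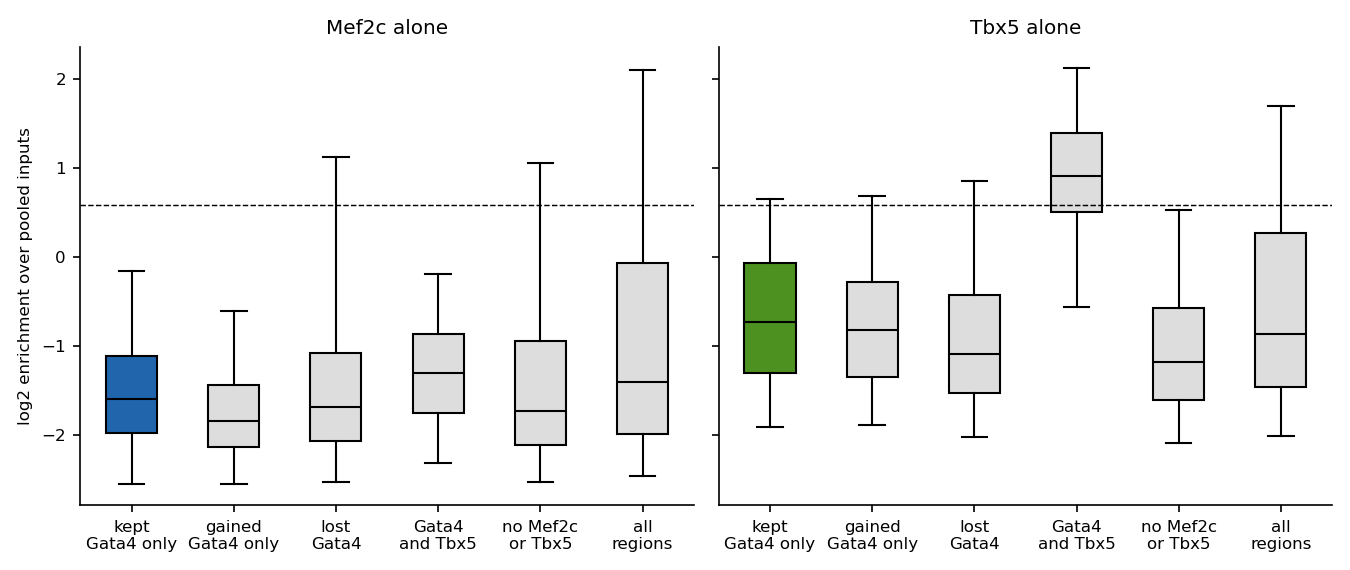
Log2 enrichment of Mef2c alone and Tbx5 alone, which do not enter the rule, at the kept Gata4-only regions beside the sets most like them and all regions, with the median as a line, the interquartile range as a box and the 5th to 95th percentile as whiskers, and the threshold as a dashed line. At the kept regions the medians are -1.59 for Mef2c alone and -0.73 for Tbx5 alone, against -1.40 and -0.86 over all regions.

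Mef2c alone was set against Tbx5 alone with edgeR's quasi-likelihood test, a model fitted to the counts of all regions that pass a filter on low counts, with Benjamini-Hochberg adjustment and a call at an adjusted p under 0.05. Of the kept regions 993 passed the filter, and 689 were called, 134 higher with Mef2c alone and 555 lower. Over all 18653 regions tested 90.9% were called, 45.4% higher and 45.5% lower. The median log2 fold change was -1.02 over the 993 kept regions and -0.08 over all regions tested. The other 1585 kept regions had too few counts to pass. A region low in one group passed through the group where it was high, so the counts and the median over those that passed do not describe all kept regions. With no filter, 194 of 2575 kept regions were higher and 481 lower, the median log2 fold change over them was -0.43, and 61.1% of all regions were called. Scaling by library totals in place of TMM moved the median of all regions tested to -0.84. It gave 62 kept regions higher and 757 lower (all regions 39.8% and 50.5%). DESeq2 gave 129 and 360 (all regions 45.2% and 40.8%).

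The kept regions with the largest change in each direction, among the called ones above the median level whose samples did not overlap, were named. Their CPM are scaled by library totals and their log2 fold changes by TMM, so the values need not match. At chr1:184302138-184302365, for example, the log2 fold change was -3.89 with TMM and -4.65 with library totals. Highest was chr1:156625656-156625881, where Mef2c alone gave 40.3, 50.6 and 59.5 CPM and Tbx5 alone gave 6.18, 2.99 and 4.71 CPM. Every Mef2c sample was far above every Tbx5 sample, with a log2 fold change of 4.00 ± 0.45 (SE, edgeR adjusted p = 1.27e-10). Mef2c with the others, which the rule holds under the threshold, gave 28.7, 35.2, 34.3 and 39.5 CPM there.

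At chr10:22635914-22636191 Mef2c alone gave 44.6, 86.8 and 59.5 CPM and Tbx5 alone gave 4.12, 11.9 and 11.8 CPM (log2 fold change 3.49 ± 0.41, edgeR adjusted p = 2.41e-10). At chr10:26715782-26716148 they gave 64.2, 94.0 and 82.9 CPM and 10.3, 20.9 and 11.8 CPM (3.21 ± 0.34, edgeR adjusted p = 2.08e-11). These 3 kept regions thus carried more Mef2c than Tbx5 signal when each factor was alone, and the inputs gave 0 to 54.7, 16.0 to 62.6 and 31.3 to 72.5 CPM there.

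In the other direction, chr1:184302138-184302365 had 5.45, 4.13 and 3.19 CPM of Mef2c alone and 80.3, 140 and 98.9 CPM of Tbx5 alone, against 16.0 to 61.6 CPM in the inputs. All Mef2c samples were below the inputs and all Tbx5 samples above them, with a log2 fold change of -3.89 ± 0.39 (edgeR adjusted p = 3.19e-12). Tbx5 with the others, which the rule holds under the threshold, gave 12.1, 40.3, 51.2 and 44.0 CPM there.

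At chr6:17449075-17449412 Mef2c alone gave 3.27, 3.10 and 11.7 CPM and Tbx5 alone 86.5, 137 and 111 CPM (log2 fold change -3.47 ± 0.38, edgeR adjusted p = 4.16e-11). At chr13:9060666-9061203 they gave 12.0, 16.5 and 14.9 CPM and 122, 122 and 139 CPM (-2.44 ± 0.29, edgeR adjusted p = 3.37e-10). Tbx5 alone was above every input at these 3 regions, including this last one, where the inputs reached 103 CPM. The 6 named regions kept their call in all 10 alternatives of this comparison.

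Against the inputs, whose counts also enter the rule, 1967 kept regions passed the filter for Mef2c alone. Of these 198 were higher with Mef2c alone and 1009 lower, where 73.3% of all regions tested were called (33.6% higher, 39.7% lower). For Tbx5 alone 1525 passed, 330 higher and 487 lower, where 68.2% of all regions tested were called (33.4% higher, 34.8% lower). A region low in the ChIP group could pass the filter through the inputs, so these counts do not describe all kept regions. With no filter, 255 of 2578 kept regions were higher and 1009 lower for Mef2c alone (all regions 32.2% and 33.8%). For Tbx5 alone, 426 were then higher and 561 lower (all regions 27% and 27%). The higher counts rest on the scaling and on single samples. With library totals they were 29 for Mef2c alone and 81 for Tbx5 alone (all regions 21.3% and 24%). The median of all regions tested was then -1.91 and -0.98. Leaving out the summed inputs 2, 4 and 5 gave 61 for Mef2c alone and 24 for Tbx5 alone, leaving out the summed inputs 1 and 3 gave 30 for Tbx5 alone, and leaving out library 1 or 3 of Tbx5 alone gave 132 or 143. Over all regions tested, 41.7% were higher for Mef2c alone without inputs 2, 4 and 5, and for Tbx5 alone 35.5% without these, 37.6% without inputs 1 and 3, and 34.2 or 36.1% without library 1 or 3. Fewer kept regions pass the filter when a deep input is left out (669 for Tbx5 alone without inputs 2, 4 and 5).

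Gata4 with the others was set against Gata4 alone with the same test. Both groups enter the rule, so the counts are a description. Of the kept regions 2561 passed the filter, 1 was called higher with the others and 174 lower, where 31.7% of all regions tested were called (16.5% higher, 15.2% lower), and the median log2 fold change was -0.31 over the kept regions and -0.003 over all regions tested. Library 4 of Gata4 alone entered this fit, and without it 851 kept regions were lower and 4 higher, while the share called over all regions tested was 51.3% (27.6% higher, 23.7% lower). Leaving out library 1, 2 or 3 of Gata4 alone gave 40, 23 or 51 lower, and leaving out sample 2, 4 or 5 of Gata4 with the others gave 68, 80 or 101, with 17.1 to 32.4% of all regions tested called in these 6 fits.

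The kept region called higher with the others was chr12:88157210-88157493. Gata4 gave 86.9, 81.4, 76.1, 119 and 107 CPM with the others and 45.5, 37.2, 66.0 and 22.4 CPM alone, which did not overlap and gave a log2 fold change of 1.05 ± 0.31 (SE). Of the 3 lower regions with no overlap and the largest change, chr9:110269264-110269636 had 43.1, 21.6, 38.9, 31.2 and 28.7 CPM with the others and 72.4, 107, 92.4 and 44.9 CPM alone (-1.33 ± 0.30). The others were chr2:122060794-122061000 (-0.95 ± 0.29) and chr18:83134353-83134559 (-0.87 ± 0.28). No p is given, since the values of both groups chose the regions. Of 18 alternatives, the call was lost in 5 at the chromosome 12 region, 1 at the chromosome 9 region, 7 at the chromosome 2 region and 5 at the chromosome 18 region. Leaving out library 1 of Gata4 alone ended it on chromosomes 12, 2 and 18 (log2 fold change 1.02, -0.94 and -0.71), leaving out library 2 ended it on chromosomes 12 and 2 (0.95 and -0.89), and leaving out the summed libraries 1 and 6 with the others ended it on chromosome 18 (-0.85). Since the regions were taken for having no overlap, library 4 of Gata4 alone lay on the side of its group at each by that choice.

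The inputs of cells with all 3 factors were compared with those of the single-factor cells by the same test. Of the 853 regions tested, 89 were kept regions, and 0 were called (0% of all regions tested) by edgeR and by DESeq2, with 3 kept regions and 43 regions in all at an unadjusted p under 0.05. At these input totals few regions had enough counts to enter the test.

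All 5 regions on the Y chromosome were kept Gata4-only regions, which was noticed after their values were seen, and their samples disagreed. Their summed level in Gata4 with the others was 200 CPM in libraries 1 and 6, 3.59 in library 2, 138 in library 3, 25.6 in library 4 and 1.06 in library 5, and in Gata4 alone it was 45.5, 284, 260 and 17.96 CPM. Inputs of cells with all 3 factors gave 40.8 CPM for 1 and 3, 2.73 CPM for 2, 4 and 5, and 42.3 CPM for 6, and the inputs of Gata4, Mef2c and Tbx5 alone gave 62.6, 71.9 and 30.8 CPM. Reads on this chromosome were thus scarce in inputs 2, 4 and 5 and in libraries 2 and 5 of Gata4 with the others.

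Mef2c with the others gave 0, 11.7, 1.74 and 0 CPM at the Y regions in libraries 2 to 5, and Tbx5 with the others gave 1.72, 11.7, 0 and 0.698 CPM. These groups have no library 1 or 6. A count of 0 allows up to 7.83 CPM in library 2 and 1.26 CPM in library 5 of Mef2c and up to 3.13 CPM in library 4 of Tbx5. Within number 3, the Y regions had 138 CPM of Gata4 and 11.7 CPM each of Mef2c and Tbx5, against 43.1 CPM in the input of that number. Mef2c alone gave 8.71, 8.26 and 5.31 CPM and Tbx5 alone 14.4, 11.9 and 18.8 CPM. When the rule used numbers 2 to 5 of the cells with all factors, a choice made after seeing the data, 2181 regions were kept and 0 of them were on the Y chromosome. Of these, 2107 were among the 2578. With numbers 2, 4 and 5, 2119 were kept, 1953 of them among the 2578, and 0 were on the Y chromosome. Numbers 1 and 6 enter the rule for Gata4 with the others only. Membership beyond these 5 regions thus also depends on the numbers used. What the difference between the numbers reflects was not tested.

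**Figure D5:**
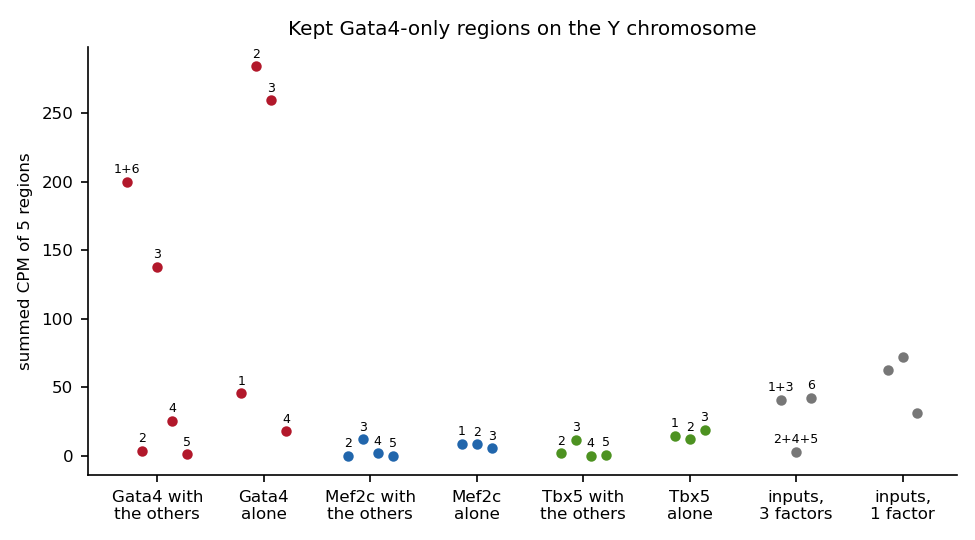
Summed CPM at the 5 Y chromosome regions, all kept Gata4-only regions, in each sample. Gata4 with the others runs from 1.06 to 200 CPM and Gata4 alone from 17.96 to 284 CPM, with inputs between 2.73 and 71.9 CPM.

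The kept regions were found on every chromosome with regions. They made up 12.9% of the 611 regions on the X chromosome, 10.8% on chromosome 9, 10.3% on chromosome 17 and 10.1% on chromosome 7, and the lowest share was 6.54% on chromosome 2, around the 8.37% over all. Their median width was 255 bp (201 to 1484) against 234 bp over all regions, and 7.91% were 500 bp or wider against 5.03%. The most similar sets were also wider than all regions. The median was 245 bp at the gained Gata4-only regions, with 5.28% at 500 bp or more. It was 262 bp (6.15%) at regions enriched for Gata4 alone and not with the others, and 306 bp (12.98%) where Tbx5 joined Gata4. Median input was 26.8 CPM, or 99.5 CPM per kb, against 30.3 CPM, or 119 CPM per kb, over all regions. The input is the divisor of the enrichment and so enters the rule. Median input was 29.2 CPM (113 CPM per kb) at the gained Gata4-only regions. It was 30.9 CPM (113 CPM per kb) at regions enriched for Gata4 alone and not with the others, and 30.9 CPM (96.9 CPM per kb) where Tbx5 joined Gata4. Why the input differed between sets was not tested.

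Kept regions had other kept regions near them. For 17.2% of them the nearest region was itself kept, against 8.57% for all regions, and for 14.7% another kept region lay within 10000 bp, against 5.98%. The nearest region was kept for 8.36% of gained Gata4-only regions and 10.8% where Tbx5 joined Gata4. It was kept for 10.3% of regions enriched for Gata4 alone and not with the others. A kept region lay within 10000 bp for 6.16, 10.2 and 7.84% of these sets. Any region lay that near for 49.7% of kept regions and 43.9% of all regions. Joined over gaps of up to 10000 bp the kept regions formed 2200 single regions, 159 pairs and 19 runs of 3 or more, and the longest had 4. Such a run, chr10:67271325-67272502, had 4 kept regions of 201 to 307 bp within 1178 bp. Its log2 enrichment was 1.21 to 1.92 for Gata4 with the others and 1.62 to 2.17 for Gata4 alone, and below 0 for Mef2c alone and Tbx5 alone. The others, chr6:138905416-138906824 (1409 bp) and chr10:128550376-128552378 (2003 bp), had the same signs. Neighbouring regions of a run share reads of the same stretch and are not independent.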

How the data were processed

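Per the labels, ChIP-seq and input chromatin were sequenced from biological replicates. The authors deposited raw, whole-number read counts per region for 33 libraries. The submitters' processing notes name FastQC, Bowtie2 (2.2.4) and featureCounts as tools and mm9 as the build. How duplicates were handled and the regions selected is not given in the sources used here. Had these libraries been used to call the regions, every share would depend on that. No mm9 genome was used, so sequences, motifs and genes of the regions were not analysed here.

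The regions and comparisons were chosen with earlier results of these data known. CPM, enrichment (pseudocount 5 CPM) and membership were computed as the opening states. Libraries of a group that a chi-square test of their counts did not separate at p under 0.05 were summed and counted once. Tests used edgeR 4.0.16 (R 4.3.3) on only the groups compared. Settings were TMM, filterByExpr with a minimum count of 10 and a minimum total of 15, robust glmQLFit and glmQLFTest. The fit was also run on simulated counts in which most regions did not change. In the comparisons of Mef2c alone and Tbx5 alone most regions were called, so the simulation does not cover the scaling there. DESeq2 1.42.0 was an alternative. Other alternatives were the scaling, the filter, the threshold, the pseudocount, the inputs, each library counted singly and each sample left out. For membership only Gata4 samples were left out.

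Regions named were the 10 with the highest lower Gata4 enrichment, the 3 on either side of the threshold and, per comparison, up to 3 in each direction with the largest change among those called, above the median level and without overlap. Regions of the Y chromosome and those with both factors alone were added after seeing the values. Between the groups tested against each other, samples of the same number did not deviate together, so no block was used. Y chromosome reads of the cells with all 3 factors differed by number, as given with those regions.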

Additional observations from a re-analysis of the deposited data

Results flagged for a closer look

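In groups of 4 or 5 samples, a highest or lowest sample lay far from the rest in 12 of 140 groups of values, over 33 named regions. Chance alone gives such a gap in about 1 of every 20 groups when values follow a normal distribution. A group with counts in a single sample and 0 in the rest always shows it, as at Y chromosome regions below. The 12 can therefore not be set against that rate.

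The median log2 enrichment at the kept Gata4-only regions was 0.015 in library 4 of Gata4 alone, where libraries 1 to 3 gave 1.20 to 1.40. At chr18:83134353-83134559 library 1 of Gata4 alone gave 97.3 CPM and libraries 2 to 4 gave 60.9 to 62.8 CPM. At chr15:38502498-38502754 sample 4 of Gata4 with the others gave 36.9 CPM, against 52.7 to 58.4 CPM in its other samples.

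Single samples of Mef2c with the others stood apart at 4 regions off the Y chromosome. Library 2 gave 26.1 CPM at chr6:115236959-115237416 (others 13.96 to 15.9 CPM) and 39.2 CPM at chr10:26715782-26716148 (others 57.2 to 60.4 CPM). Library 4 gave 23.8 CPM at chr1:184302138-184302365 (others 10.9 to 13.1 CPM), and library 5 gave 22.3 CPM at chr6:17449075-17449412 (others 14.5 to 15.7 CPM).

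On the Y chromosome library 3 was the only one above 0 at several regions. Tbx5 with the others gave 3.18 CPM there at chrY:1137850-1138119, 2.12 CPM at chrY:1158594-1159083 and 1.06 CPM at chrY:1163673-1163873. Mef2c with the others gave 3.36 CPM at chrY:1158594-1159083 and 0.839 CPM at chrY:1163673-1163873. The values rest on 1 to 4 counts each.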

How the results depend on the processing

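At the named regions that were tested, no log2 fold change reversed its sign in any alternative. Calls lost at single regions are given with those regions. Counts have no sign to reverse, and some changed strongly, as given below. For Mef2c alone against Tbx5 alone the median log2 fold change of all regions tested did change sign. It was -0.077 in the main fit, 0.114 with DESeq2 and 0.016 without library 3 of Tbx5 alone. With a threshold of 1, 1021 regions were kept (819 shared). Of the 2578 kept regions Mef2c alone then passed at 6 and Tbx5 alone at 30 (all regions 15.3% and 14.3%). Membership was 2181 to 2770 regions without 1 of the Gata4 samples in the rule. Samples of Mef2c or Tbx5 with the others and inputs were not left out of the rule. With TMM factors 2766 regions were kept, 1547 of them shared; all 2578 still passed for Gata4, but Tbx5 with the others then passed at 865 and Mef2c with the others at 404. Mef2c alone reached the threshold at 129 kept regions with its own input and 363 with TMM factors, and Tbx5 alone at 419 and 698. The shares over all regions were 23.9, 36.2, 30.3 and 32.1% in the same order of settings. Without 1 of the factor's own samples the counts were 25 to 28 for Mef2c alone and 152 to 193 for Tbx5 alone. Over all regions these shares were 19.1 to 19.2% and 20.0 to 20.8%.

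For Mef2c alone against Tbx5 alone, library totals gave 62 kept regions higher (all regions 39.8%) and DESeq2 gave 360 lower (all regions 40.8%). Leaving out a sample gave 113 to 152 higher and 456 to 612 lower. Over all regions tested these shares were 41.3 to 44.1% and 39.9 to 46.1%. Against inputs, library totals gave 29 higher and 1776 lower for Mef2c alone (all regions 21.3% and 67.5%). For Tbx5 alone they gave 81 higher and 822 lower (all regions 24% and 52.7%). With every library counted singly, 36 were higher and 534 lower for Mef2c alone (all regions 44.9% and 47.1%). For Tbx5 alone 74 were then higher (all regions 41.3%), and DESeq2 gave 212 higher (all regions 29.7%). Leaving out a sample gave 61 to 227 higher and 683 to 1046 lower for Mef2c alone (all regions 32.9 to 41.7% and 36.3 to 45.6%). For Tbx5 alone it gave 24 to 337 higher and 374 to 509 lower (all regions 32.6 to 37.6% and 28.3 to 37.2%).

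For Gata4 with the others against alone, leaving out a sample gave 0 to 4 higher and 23 to 851 lower. Over all regions tested these shares were 8.3 to 27.6% and 8.78 to 23.7%. No filter gave 0 and 44 (all regions 11.2% and 10.5%), and every library singly gave 266 lower (all regions 17.6%). DESeq2 gave 3 higher and library totals 2 higher (all regions 15.3% and 15.5%). Further fits were chosen after seeing the data. Only numbers 1, 3 and 6 with the others gave 0 and 0 (all regions 7.47% and 5.21%). Only 2, 4 and 5 gave 65 lower (all regions 9.55%). Without library 4 alone, the former gave 4 and 356 (all regions 23.3% and 19.9%). The latter then gave 6 and 823 (all regions 26.8% and 23.2%). The causes were not tested.

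Samples with the same number did not deviate together (correlations -0.02 to 0.02 between Mef2c alone and Tbx5 alone, -0.19 to 0.16 between the Gata4 groups). A replicate block gave 130 higher and 533 lower for Mef2c alone against Tbx5 alone (all regions 45.2% and 44.9%). It gave 0 higher and 85 lower for the Gata4 groups (all regions 12.6% and 11.9%). No paired analysis was possible for the inputs, because the summed inputs hold several numbers and those of single-factor cells have 1 library each.

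The input depth limits the enrichment, and the filter leaves out kept regions with few counts. Sites outside the deposited regions were not analysed here.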
